A study of Mus musculus with 6 samples.

Results

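The miR-302/miR-367 cluster is a row of 5 miRNA hairpins on mouse chromosome 3, in the order Mir302b, Mir302c, Mir302a, Mir302d and Mir367. Its members were chosen by name as both arms of each hairpin, the 5p arm from the left side and the 3p arm from the right side of the folded precursor, which gave 10 of the 1907 mature miRNAs in the count table. They are mmu-miR-302b-5p, mmu-miR-302b-3p, mmu-miR-302c-5p, mmu-miR-302c-3p, mmu-miR-302a-5p, mmu-miR-302a-3p, mmu-miR-302d-5p, mmu-miR-302d-3p, mmu-miR-367-5p and mmu-miR-367-3p. All 10 had counts in at least 1 library. The filter on low counts passed 8 of them, and miR-302b-5p and miR-367-5p did not pass.

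The study compared the miRNAs of mouse embryonic stem cells (ESCs) grown without feeder cells in serum medium with those of ESCs in the serum-free ground-state media 2i and R2i. R2i was the medium of origin of both lines, RB18 and RB20 (C57BL/6), and the serum and 2i cells had spent over 10 passages away from it. Each line was sequenced once in each medium, giving 6 libraries, 2 per medium, and each library was prepared from 3 pooled cultures. Since the libraries of a medium differ in cell line, variation between lines and variation between repeats cannot be told apart. Cells in serum medium received 15% fetal bovine serum. In 2i, the additions were the MEK inhibitor PD0325901 at 1 µM and the GSK3 inhibitor CHIR99021 at 3 µM. In R2i, PD0325901 at 1 µM was combined with SB431542, an inhibitor of TGF-β receptors, at 10 µM. LIF, a cytokine that sustains ESC self-renewal, was present at 1000 U/ml in every medium.

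The total of miRNA counts was 1744187 in serum RB18, 2243369 in serum RB20, 2057602 in 2i RB18, 3365676 in 2i RB20, 1041858 in R2i RB18 and 3593356 in R2i RB20. R2i RB18 therefore had the lowest depth, and, as described below, the highest level of every member, so values without it are given where leaving it out moved them most. Counts are reads and not molecules, and the intervals given here cover counting error only.

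The hairpins of this cluster are cut from a shared primary transcript whose promoter is bound by the pluripotency factors Oct4, Sox2 and Nanog. A miRNA recognises its targets mainly through the seed, a short stretch near its 5′ end, and most miR-302 3p arms carry the seed that is also found in the miR-290 cluster, the dominant miRNA cluster of mouse ESCs. These miRNAs speed passage from the G1 to the S phase of the cell cycle and help somatic cells to be reprogrammed, and in the mouse embryo miR-302 is known from the epiblast after implantation.

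The 5 hairpins span 580 bases, chr3:127545228-127545807 (GRCm38), on the plus strand. They lie within intron 8 of 12 of an annotated Larp7 transcript, chr3:127544279-127545825. Larp7 encodes a protein that binds the 7SK RNA, and it is transcribed from the minus strand, so the hairpins are antisense to it. Whether strand was used in counting is not given in the sources used here, and reads of the opposite strand at these positions could then not be told apart.

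RefSeq (GRCm38.p6) held the mature sequences of 9 of the 10 members. The mature 3p arms are shown first because most of the cluster's counts fall on them, with the seed (bases 2 to 8) in capitals.
mmu-miR-302b-3p: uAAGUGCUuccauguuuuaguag
mmu-miR-302d-3p: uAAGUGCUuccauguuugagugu
mmu-miR-302c-3p: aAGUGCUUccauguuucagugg
mmu-miR-367-3p: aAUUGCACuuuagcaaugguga

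miR-302b-3p and miR-302d-3p shared the seed AAGUGCU and were identical at 20 of 23 bases, with a longest shared run of 17 bases. The seed of miR-302c-3p was AGUGCUU: its first 7 bases are bases 2 to 8 of the other pair, so that the same letters begin 1 base earlier. miR-367-3p, with the seed AUUGCAC, was identical to miR-302b-3p at 9 of 22 aligned bases. How reads that match several members were counted is not given in the sources used here, and a read confined to the shared run could not be assigned to miR-302b-3p or miR-302d-3p by its sequence. miR-302c-3p was identical to each of the pair at 20 of 22 aligned bases, with a longest shared run of 16 bases, so the split of reads among these arms is uncertain, and with it their single levels and folds. miR-302a-3p was not part of this comparison, and its assignment is open as well.

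The 5p arms that passed the filter on low counts are shown for comparison, again with bases 2 to 8 in capitals.
mmu-miR-302a-5p: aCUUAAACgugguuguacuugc
mmu-miR-302c-5p: gCUUUAACaugggguuaccugc
mmu-miR-302d-5p: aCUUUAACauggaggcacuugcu

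miR-302c-5p and miR-302d-5p had the seed CUUUAAC, which miR-302b-5p shares, and miR-302a-5p had CUUAAAC. No listed miRNA outside the cluster with a RefSeq sequence carried either of these seeds. The hairpins Mir302d and Mir302c are given whole, with the mature arms in capitals, because they differed widely in the balance of arms described below. Mir302d lies at chr3:127545624-127545689 and Mir302c at chr3:127545363-127545430.
Mir302d: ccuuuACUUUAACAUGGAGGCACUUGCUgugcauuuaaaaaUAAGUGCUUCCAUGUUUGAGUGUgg
Mir302c: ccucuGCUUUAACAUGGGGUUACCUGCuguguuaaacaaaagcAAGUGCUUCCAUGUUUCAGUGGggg

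The cluster made up a small share of the miRNA counts, and within each line this share was lowest in serum and highest in R2i. In RB18 it was 0.219% in serum (95% Wilson interval 0.212 to 0.226), 0.658% in 2i (0.647 to 0.669) and 1.96% in R2i (1.93 to 1.98). In RB20 the corresponding shares were 0.298% (0.291 to 0.306), 0.392% (0.385 to 0.398) and 0.798% (0.789 to 0.808). The step from serum to 2i was small in RB20 and large in RB18. RNA was taken from whole cultures, in which fewer cells with the cluster and less of it per cell cannot be told apart.

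To compare levels between libraries, counts were scaled with edgeR's TMM factors and expressed as CPM (counts per 1000000 counts of the scaled library). The 9 members with a RefSeq mature sequence have 21 to 23 bases, and levels were not divided by length. The summed level of the 10 members averaged 2703 ± 869 CPM for serum, 5303 ± 1808 CPM for 2i and 12852 ± 6570 CPM for R2i (± SD, n = 2 libraries). Within RB18 the summed level was 3.15 times as high in 2i as in serum and 8.38 times as high in R2i as in serum. Within RB20 these ratios were 1.21 and 2.47. R2i exceeded 2i by a factor of 2.66 in RB18 and 2.04 in RB20, the comparison in which the lines were closest. The ratio of the means was 4.75 for R2i over serum and 2.42 for R2i over 2i, and without R2i RB18 these fell to 3.04 and 1.55. An exact permutation test of 2 libraries against 2 cannot give a two-sided p below 0.333, so the sums were not tested.

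**Figure D1:**
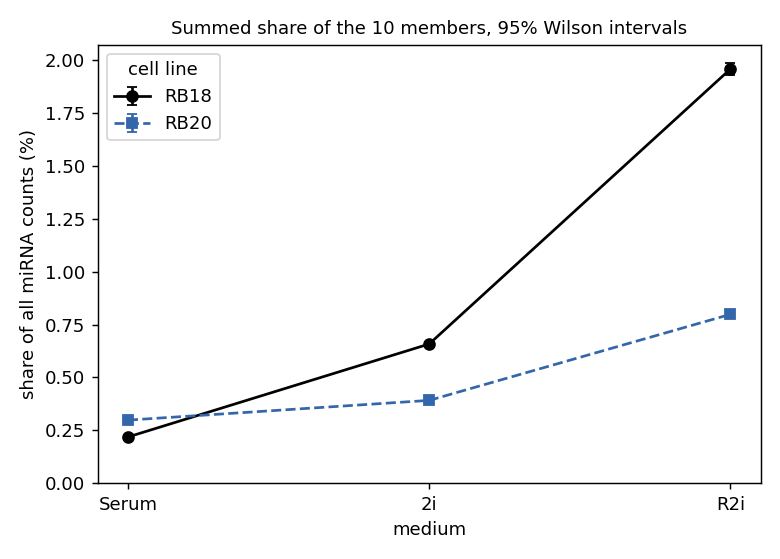
Share of all miRNA counts taken by the 10 members of the cluster (percent, y axis) in serum, 2i and R2i (x axis), with RB18 as black circles and RB20 as blue squares. Bars are 95% Wilson intervals for counting error, mostly smaller than the symbols, and lines join the libraries of a cell line; the share was 1.96% in R2i RB18 and at most 0.798% in the other libraries.

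mmu-miR-302d-3p was the most abundant member in every library. It had 1395 CPM in serum RB18 and 2413 CPM in serum RB20, 4031 and 2438 CPM in 2i, and 11506 and 5615 CPM in R2i, in the order RB18 and RB20 used throughout. Among all listed miRNAs it ranked 67 and 50 in serum, 33 and 45 under 2i, and 20 and 26 under R2i. Both R2i libraries lay above the other 4, whereas 2i RB20 and serum RB20 were almost level. By itself it took between 60.6% and 72.7% of the cluster's counts.

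mmu-miR-302b-3p, the next in abundance, had 348 (RB18) and 379 CPM (RB20) in serum, 1504 and 915 CPM under 2i, and 2943 and 1351 CPM under R2i. The serum libraries were close together and clearly below the other 4, while 2i RB18 exceeded R2i RB20. mmu-miR-302a-3p had 163 (RB18) and 209 CPM (RB20) in serum, 503 and 321 CPM under 2i, and 1184 and 561 CPM under R2i, and the 3 media did not overlap.

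mmu-miR-302c-3p, the arm with the shifted seed, had 20.8 (RB18) and 29.2 CPM (RB20) in serum, 141 and 83.4 CPM under 2i, and 317 and 139.6 CPM under R2i. mmu-miR-367-3p, the only abundant product of the hairpin that is unrelated in seed, had 21.9 (RB18) and 32.2 CPM (RB20) in serum, 105 and 62.3 CPM under 2i, and 279 and 102 CPM under R2i. For both, the serum libraries were lowest, and R2i RB20 lay just under 2i RB18.

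The 5p arms of Mir302a, Mir302c and Mir302d were less abundant than the 3p arms of the same hairpins in each library. mmu-miR-302a-5p had 111 (RB18) and 206 CPM (RB20) in serum, 222 and 161 CPM under 2i, and 1012 and 343 CPM under R2i. mmu-miR-302c-5p had 15.9 (RB18) and 24.8 CPM (RB20) in serum, 35.0 and 18.0 CPM under 2i, and 136 and 44.9 CPM under R2i. mmu-miR-302d-5p had 11.0 (RB18) and 22.8 CPM (RB20) in serum, 39.8 and 22.3 CPM under 2i, and 106 and 45.2 CPM under R2i. In each of these both R2i libraries were above the other 4, and serum and 2i overlapped, with 2i RB20 below serum RB20; for miR-302d-5p the gap was small and turned with library totals in place of TMM (21.7 CPM in 2i RB20 and 20.5 CPM in serum RB20).

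The remaining arms were near the limit of detection, taken as 3 counts, which corresponds to between 0.858 and 2.57 CPM depending on the library. mmu-miR-302b-5p had 3 and 3 counts in serum, 3 and 11 under 2i, and 14 and 12 under R2i. mmu-miR-367-5p had 0 counts in the serum and 2i libraries, and 4 and 3 counts in R2i. A count of 0 allows a share of up to 0.000172% in serum RB18 and 8.91e-05% in 2i RB20, and no fold is given for either arm.

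**Figure D2:**
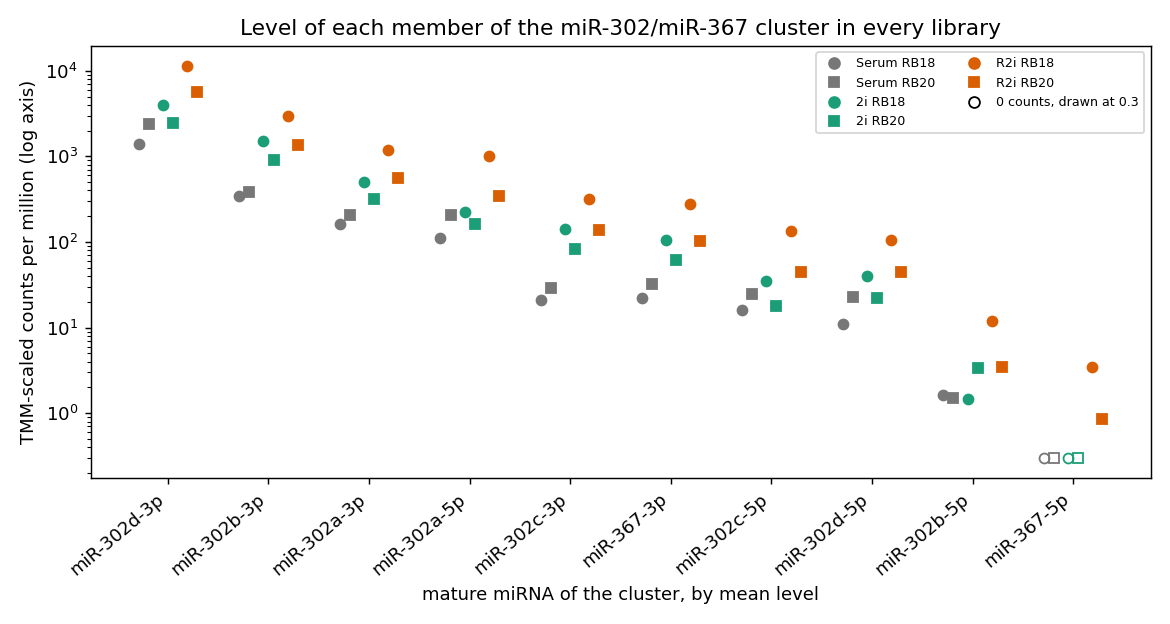
Level of each of the 10 members (TMM-scaled CPM, log y axis) in every library, ordered by mean level along the x axis, with serum in grey, 2i in green, R2i in orange, RB18 as circles and RB20 as squares. Open symbols mark 0 counts and are drawn at 0.3 CPM; miR-302d-3p is the highest member in every library, from 1395 to 11506 CPM.

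Whether the members differed between media was tested with edgeR's quasi-likelihood test on all 571 miRNAs that passed the filter, and the calls used an adjusted p (Benjamini-Hochberg) under 0.01 together with a difference of over 2-fold. The 8 tested members had at least 20 counts in every library, so none passed the filter through its high group alone. With 2 libraries per medium, the p-values rest on the spread that edgeR shares across miRNAs. The members come from a shared primary transcript, and the split of similar reads among them is uncertain. Counts of members set against the share of all tested miRNAs are therefore not counts of independent results.

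In R2i against serum, the members called were the 3p arms of the 5 hairpins, all higher in R2i. miR-302c-3p had the largest log2 fold change, 3.17 (standard error, SE, 0.48, adjusted p = 0.00116 by edgeR), followed by miR-367-3p with 2.79 (SE 0.53, adjusted p = 0.00356 by edgeR). miR-302b-3p had 2.56 (adjusted p = 0.00171 by edgeR), miR-302a-3p 2.23 (adjusted p = 0.00323 by edgeR) and miR-302d-3p 2.17 (adjusted p = 0.00536 by edgeR). The 5p arms of Mir302a, Mir302c and Mir302d had log2 fold changes of 2.09, 2.10 and 2.12, similar to that of miR-302d-3p, with adjusted p = 0.0147, 0.0195 and 0.0142 by edgeR, and were not called. Library totals in place of TMM, or a filter of at least 10 counts in every library, brought the members called to 7, with miR-302a-5p and miR-302d-5p among them, and all miRNAs called higher to 93 of 571 and 51 of 402. Called higher were thus 5 of 8 members, compared with 15.1% of all tested miRNAs. The median log2 fold change was 2.20 over the members and -0.07 over all tested miRNAs. All 8 members had both R2i libraries above both serum libraries, which held for 32.4% of all tested miRNAs.

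The calls in R2i depended on single libraries, and the sizes did most where R2i RB18 was left out. In these fits the members counted are the 8 of the main test. Without R2i RB18, 3 of 8 members were called (70 of all 603 tested miRNAs were called higher), and the members' median was 1.59. miR-302a-5p then had a log2 fold change of 1.13, miR-302c-5p 1.15, miR-302d-5p 1.43, miR-302d-3p 1.58, miR-302a-3p 1.60, miR-302b-3p 1.90, miR-367-3p 1.92 and miR-302c-3p 2.49. Without R2i RB20, 8 of 8 members were called (74 of 604), and without 2i RB18, 8 of 8 (87 of 609), the 5p arms of Mir302a, Mir302c and Mir302d included. miR-302c-5p rose to 2.73 without R2i RB20 and miR-302d-5p to 2.70 without serum RB20. Without serum RB18 or without serum RB20, the members' calls by edgeR were lost, while their median was 2.06 and 2.59. Other tested miRNAs were still called higher. In these fits the spread comes from the 2i and R2i pairs alone, with the lone serum library assumed to vary like them. With the cell line as a block, 4 members were called, against 13.3% of all tested miRNAs, and miR-302d-3p was not (adjusted p = 0.0172 by edgeR). DESeq2 called 8 members and 16.8% of all tested miRNAs higher.

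In 2i against serum, the members called higher were miR-302c-3p, with a log2 fold change of 2.15 (SE 0.47, adjusted p = 0.00635 by edgeR), and miR-302b-3p, with 1.73 (SE 0.41, adjusted p = 0.00977 by edgeR). This was 2 of 8 members, against 16.8% of all tested miRNAs. The other 3p arms had 1.62 for miR-367-3p (adjusted p = 0.0326 by edgeR), 1.15 for miR-302a-3p (adjusted p = 0.0458 by edgeR) and 0.76 for miR-302d-3p (adjusted p = 0.174 by edgeR). The 5p arms had 0.85 for miR-302d-5p, 0.35 for miR-302c-5p and 0.27 for miR-302a-5p, each within 2 standard errors of 0. The members' median was 1.00, and that of all tested miRNAs -0.03. For these members the median was 0.64 without 2i RB18 and 0.81 without serum RB18. It was 1.35 without 2i RB20 and 1.35 without serum RB20. Of the members, 5 had both 2i libraries above both serum libraries, compared with 39.2% of all tested miRNAs. These 5 were the 3p arms, but the margin of miR-302d-3p was small, and with library totals in place of TMM miR-302d-5p was apart as well, which made 6.

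The calls in 2i were close to the limit. With the cell line as a block, edgeR called 0 members, against 15.6% of all tested miRNAs, with adjusted p = 0.0116 for miR-302c-3p and 0.011 for miR-302b-3p. At an unadjusted p under 0.05, 4 members were higher with the block, compared with 28.2% of all tested miRNAs. Both calls by edgeR were also lost without 2i RB18, without serum RB18 and without serum RB20. Other tested miRNAs were still called higher there. The log2 fold changes in these fits, in the same order, were 1.78, 2.04 and 2.37 for miR-302c-3p and 1.37, 1.78 and 1.74 for miR-302b-3p. Without R2i RB18, 3 of 8 members were called (96 of 603). With all libraries, DESeq2 called 4 members and 19.4% of all tested miRNAs higher, and limma on the deposited log2 values called 1 of 8 members and 16.8% of all higher.

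The average of the ground-state media against serum was tested in the same model. Called higher were 4 of 8 members, miR-302a-3p (log2 fold change 1.69), miR-302b-3p (2.15), miR-302c-3p (2.66) and miR-367-3p (2.20), against 17.0% of all tested miRNAs. miR-302d-3p missed the limit, with 1.47 (SE 0.40, adjusted p = 0.0166 by edgeR). With the block 2 were called, miR-302b-3p and miR-302c-3p, against 15.9% of all tested miRNAs. Without serum RB18 or without serum RB20, the members' calls by edgeR were lost, with medians of 1.44 and 1.97 against 1.58 with all libraries. Other tested miRNAs were still called higher in both fits. Without R2i RB18, 4 of 8 were called (94 of 603) and the median was 1.297; without R2i RB20, 5 of 8 were called (89 of 604). DESeq2 with all libraries called 7 members and 19.3% of all tested miRNAs higher. This contrast and those of 2i and R2i share the serum libraries and are not independent.

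2i and R2i share the MEK inhibitor and differ in the other compound, which inhibits GSK3 or TGF-β receptors. They differ also in history, as the 2i cells had been moved out of R2i, and the libraries cannot separate the compound from the move. The log2 fold changes of R2i against 2i were positive for the 8 tested members, from 0.83 for miR-302b-3p (SE 0.40, adjusted p = 0.324 by edgeR) to 1.82 for miR-302a-5p (SE 0.53, adjusted p = 0.162 by edgeR). edgeR called 0 of 8 members and 0% of all tested miRNAs higher in R2i. At an unadjusted p under 0.05, 7 of the 8 members were higher in R2i, compared with 10.7% of all tested miRNAs; this was 0 without R2i RB18 (43 of all 603) and 1 without 2i RB20 (33 of 602), 8 without R2i RB20 (42 of 604) and 8 without 2i RB18 (47 of 609), and 5 without either serum library (73 of 598 each time). DESeq2 called 2 members, and 1.87% of the miRNAs to which it gave an adjusted p, and edgeR without the filter on low counts called 3 of 10 members, miR-302a-5p, miR-302c-5p and miR-302d-3p, and 0.892% of all miRNAs with counts. The members' median was 1.22, that of all tested miRNAs -0.01, and 5.43% of all tested miRNAs lay above the members' median. Without R2i RB18 the members' median fell to 0.47, and without R2i RB20 it was 1.75. Both R2i libraries exceeded both 2i libraries for 5 members, against 27.1% of all tested miRNAs; the exceptions were miR-302b-3p, miR-302c-3p and miR-367-3p, for which 2i RB18 was above R2i RB20. With the block edgeR also called 0 members and 0% of all tested miRNAs. At an unadjusted p under 0.05, 4 members were then higher in R2i, compared with 10.7% of all tested miRNAs. Whether a member passed the limit between 2i and R2i thus depended on the tool and the filter.

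**Figure D3:**
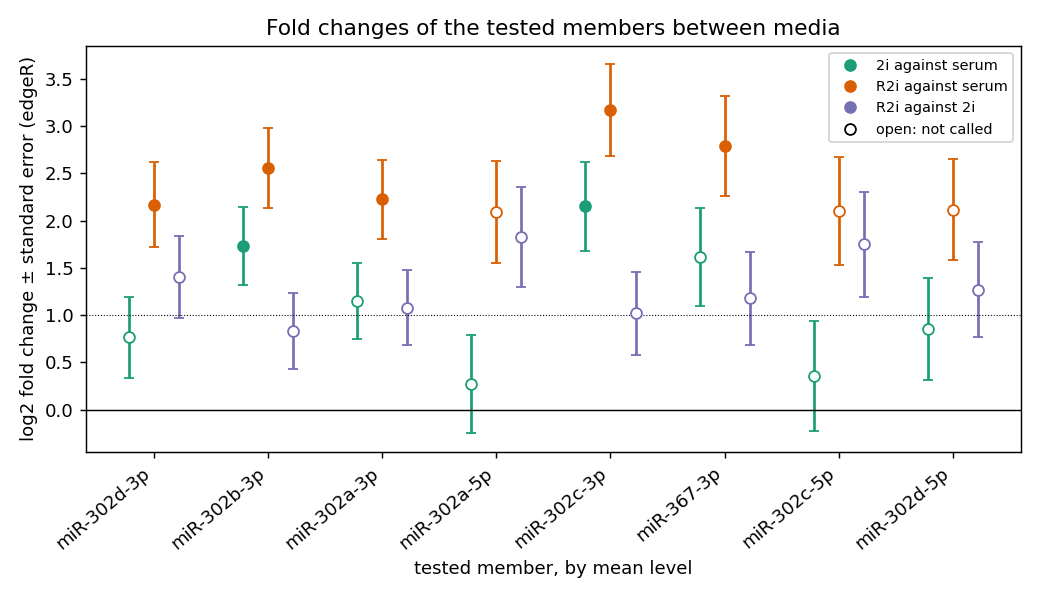
Log2 fold change (y axis, edgeR) of the 8 tested members, ordered by mean level along the x axis, for 2i against serum (green), R2i against serum (orange) and R2i against 2i (purple). Bars are standard errors, filled symbols were called and open symbols were not, and the dotted line marks a 2-fold change; the filled symbols, all 3p arms with these settings, run from 1.73 to 3.17.

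For the tested members, the media lay further apart in the RB18 libraries than in the RB20 libraries. With 1 library per line and medium, a difference between lines cannot be told apart from variation between libraries. In RB18, the 8 tested members were in the order serum, 2i, R2i, an order shown by 16.2% of the 482 tested miRNAs with more than 3 counts in each RB18 library. In RB20, 5 of 8 were, the 3p arms, compared with 13.1% of the 521 tested miRNAs with more than 3 counts in each RB20 library; miR-302d-3p was almost level between serum and 2i. The fold of R2i over serum ranged from 7.25 for miR-302a-3p to 15.2 for miR-302c-3p in RB18, and from 1.67 for miR-302a-5p to 4.77 for miR-302c-3p in RB20. The 2i over serum folds ranged from 1.99 to 6.77 in RB18 and from 0.727 to 2.85 in RB20. In RB20 the 5p arms of Mir302a, Mir302c and Mir302d had folds of 0.782, 0.727 and 0.977 in 2i, that is, TMM-scaled levels no higher than in serum. With library totals in place of TMM, miR-302d-5p in RB20 was also in the order serum (20.5 CPM), 2i (21.7 CPM), R2i (44.0 CPM).

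Within a medium, the level in RB18 was lower than in RB20 for the 8 tested members in serum, with ratios from 0.480 to 0.918 (with library totals in place of TMM, miR-302b-3p turned, with 365 CPM in RB18 and 341 CPM in RB20), and higher in 2i, with ratios from 1.38 to 1.94. In R2i the ratios ran from 2.05 for miR-302d-3p to 3.02 for miR-302c-5p. All 8 members exceeded 2 there, compared with 6.17% of the 535 tested miRNAs with more than 3 counts in both R2i libraries. The median ratio over the tested miRNAs with more than 3 counts in both libraries of a medium was 0.919 in serum (514 miRNAs), 1.01 in 2i (540 miRNAs) and 1.00 in R2i. R2i RB18 also had the lowest depth and RB18 the smaller library in each medium, and the part of depth in these ratios was not tested.

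Whether the ground-state effect itself differed between lines was tested with an interaction term. Serum had 1 library per line, so this model takes 2i and R2i of a line as repeats of the ground state, and its spread includes the difference between those media. The effect was larger in RB18 for the 8 members, by log2 differences from 1.095 for miR-302b-3p (SE 0.71) to 2.18 for miR-302a-5p (SE 1.35), with a median of 1.76 against 0.14 for all tested miRNAs. Adjusted p-values lay between 0.79 and 0.817 (edgeR). edgeR called 0 of 8 members and 0% of all tested miRNAs, and so did DESeq2 and limma for the members. At an unadjusted p under 0.05, 0 members were larger in RB18, compared with 4.03% of all tested miRNAs. Without the filter on low counts, 6 of the 8 members were (40 of all 1233), with 0 called. The median difference of the members was 0.68 without R2i RB18, 2.23 without 2i RB18 and 2.34 without R2i RB20. Each of these fits leaves a line with only 2i or only R2i as its ground state. The difference between 2i and R2i then enters the difference between lines, and the fits cannot separate them. With this spread, the test says little about whether the lines differ in the cluster.

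The balance between the arms set the hairpins apart from each other. Mir302d gave between 99.0% and 99.2% of its counts as the 3p arm, Mir302b between 99.5% and 99.9%, and Mir367 between 98.8% and 100%. For Mir367 in serum RB18, 40 of 40 counts were 3p, with a 95% Wilson interval from 91.2% to 100%. Mir302a and Mir302c, in contrast, gave sizeable amounts of both arms.

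In Mir302c the 3p share was 56.7% in serum RB18 (95% Wilson interval 44.8 to 67.9) and 54.1% in serum RB20 (44.8 to 63.2). It was 80.1% (75.7 to 83.9) and 82.2% (77.8 to 86.0) in 2i, and 70.0% (66.0 to 73.8) and 75.7% (72.2 to 78.8) in R2i. The media did not overlap, with means of 55.4% ± 1.83 for serum, 81.2% ± 1.498 for 2i and 72.8% ± 3.99 for R2i (SD, n = 2 each). Behind the serum shares stand 67 and 109 counts.

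In Mir302a the 3p share was 59.5% (95% Wilson interval 55.1 to 63.7) and 50.4% (47.0 to 53.8) in serum. It was 69.4% (67.1 to 71.7) and 66.6% (64.3 to 68.9) in 2i, and 53.9% (52.0 to 55.8) and 62.1% (60.4 to 63.7) in R2i. The 2i libraries had the highest shares for both hairpins, but serum and R2i overlapped for Mir302a, where R2i was below serum in RB18 and above it in RB20. The uncertain assignment of reads to the 3p arms applies to the shares of both hairpins. With 2 libraries per medium the shares of both hairpins were described and not tested.

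**Figure D4:**
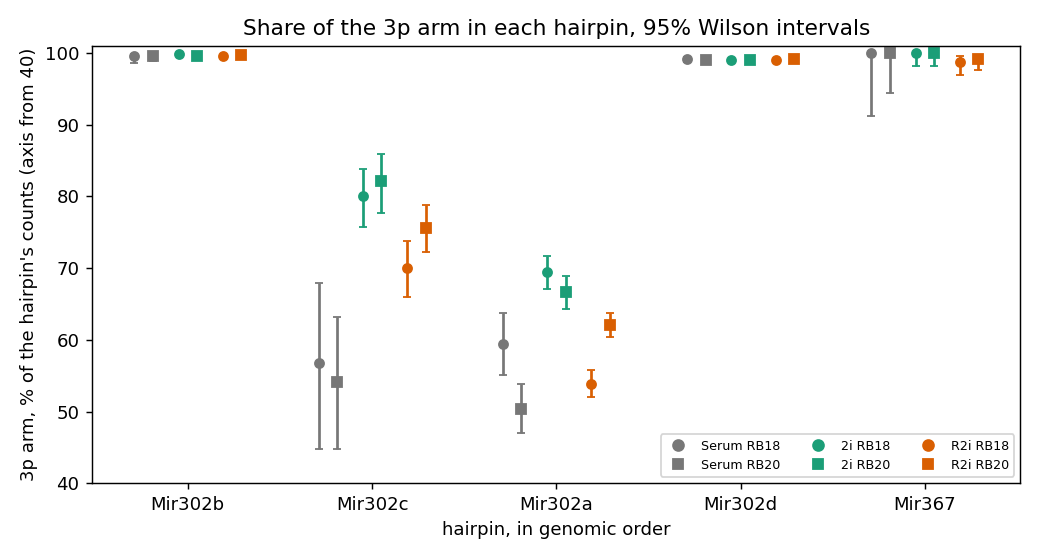
Share of the 3p arm in the counts of each hairpin (percent, y axis starting at 40) for the 5 hairpins in genomic order, with serum in grey, 2i in green, R2i in orange, RB18 as circles and RB20 as squares. Bars are 95% Wilson intervals; Mir302b, Mir302d and Mir367 lie at 98.8% or above, and Mir302c rises from 54.1% in serum RB20 to 82.2% in 2i RB20.

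The make-up of the cluster also differed between media. miR-302d-3p took 66.8% and 72.7% of the cluster's counts in serum, 61.2% and 60.6% under 2i, and 65.8% and 68.4% under R2i. miR-302b-3p took 16.7% and 11.4% in serum, 22.9% and 22.7% under 2i, and 16.8% and 16.5% under R2i. The 2i libraries thus had the lowest part of miR-302d-3p and the highest of miR-302b-3p, subject to the uncertain split of reads between these similar sequences.

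The seed AAGUGCU of miR-302b-3p and miR-302d-3p was also found in miR-291a-3p, miR-294-3p and miR-295-3p of the miR-290 cluster, and no others among the 1623 listed miRNAs with a RefSeq mature sequence. The shares given here cover miR-302b-3p and miR-302d-3p. They do not include miR-302a-3p, for which RefSeq held no mature sequence, so that its seed was not read. In RB18, this pair took 0.640% of the counts with this seed in serum (95% Wilson interval 0.618 to 0.662), 1.85% in 2i (1.82 to 1.88) and 5.27% in R2i (5.19 to 5.34). In RB20, the pair took 1.32% (1.28 to 1.35), 1.19% (1.16 to 1.21) and 2.36% (2.33 to 2.39). The share was thus highest in R2i in both lines, but in RB20 it was lower in 2i than in serum. The miR-290 relatives summed to between 209464 and 293817 CPM per library and 0 of 3 were called by edgeR in any contrast. Their log2 fold changes for R2i against serum were 0.01 for miR-291a-3p, -0.37 for miR-294-3p and 0.26 for miR-295-3p, with 0 of 3 at an unadjusted p under 0.05 and 0 of 3 called by DESeq2. The difference between their fold changes and those of the members was not tested.

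The seed AUUGCAC of miR-367-3p was carried by 5 miRNAs outside the cluster, miR-25-3p, miR-32-5p, miR-363-3p, miR-92a-3p and miR-92b-3p. miR-367-3p was a minor member of this group, with at most 0.358% of its counts (R2i RB18, 95% Wilson interval 0.321 to 0.399) and as little as 0.0177% (serum RB20, 0.0139 to 0.0226). Of the relatives, miR-92a-3p was called lower in 2i than in serum (log2 fold change -1.499, SE 0.32, adjusted p = 0.00531 by edgeR), and it had -1.03 in R2i (adjusted p = 0.0309 by edgeR). miR-32-5p had 0.95 in 2i (adjusted p = 0.0214 by edgeR), and the other 3 relatives had log2 fold changes between -0.52 and 0.47 against serum in either medium, without a call.

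**Figure D5:**
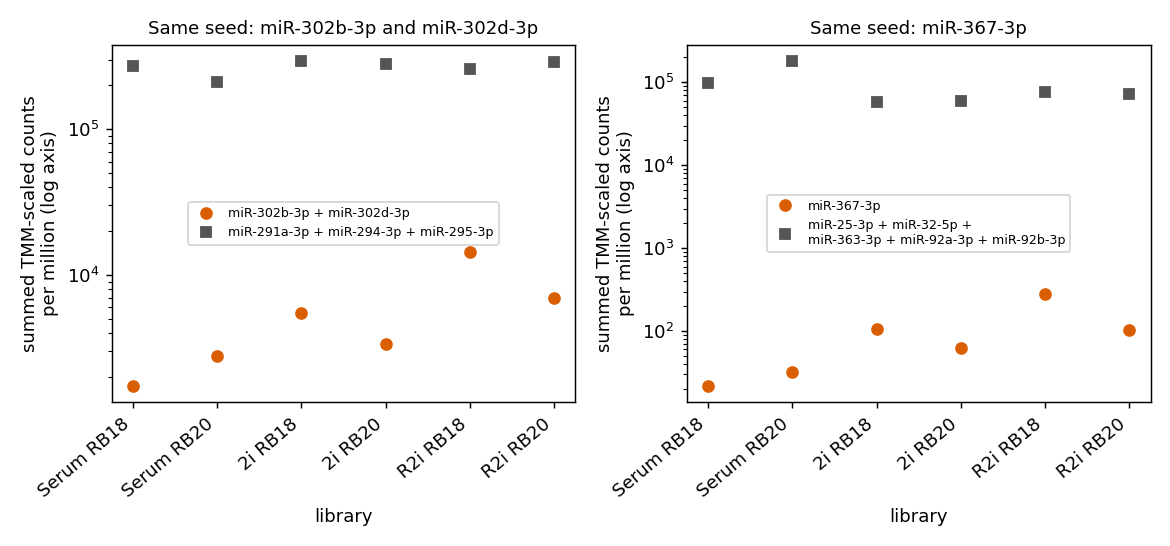
Summed level (TMM-scaled CPM, log y axis) in each library of cluster members (orange circles) and of the miRNAs outside the cluster with the same seed (grey squares), for miR-302b-3p with miR-302d-3p (left) and miR-367-3p (right). The relatives of miR-302b-3p and miR-302d-3p lie between 209464 and 293817 CPM, above the members in every library.

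Across the 6 libraries, each tested member had a Pearson r of at least 0.929 with the summed level of the other members, on the log2 scale. Among the 563 tested miRNAs outside the cluster, the 5 with the most similar pattern to the cluster's sum were miR-5121 (r = 0.953), miR-874-3p (r = 0.953), miR-470-5p (r = 0.928), miR-3072-3p (r = 0.924) and miR-346-5p (r = 0.908). The sixth had r = 0.908 as well, and the median over the 563 was -0.0995. miR-5121 had 66.3 (RB18) and 73.4 CPM (RB20) in serum, 112 and 98.9 CPM under 2i, and 168 and 154 CPM under R2i. miR-874-3p had 8.76 (RB18) and 7.93 CPM (RB20) in serum, 21.9 and 13.4 CPM under 2i, and 64.3 and 44.3 CPM under R2i. miR-470-5p had 30.1 (RB18) and 28.8 CPM (RB20) in serum, 66.6 and 58.3 CPM under 2i, and 119 and 61.2 CPM under R2i. miR-3072-3p and miR-346-5p never exceeded 24 counts. These r describe 6 points that share media, lines and depth, and ranking by Spearman's coefficient kept 1 of the 5.

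The identity of the cells was checked with miRNAs that mark ESCs and other cell types. The ESC markers, 6 miRNAs of the miR-290 cluster, were present at 334733 and 266970 CPM in serum, 344123 and 330510 CPM under 2i, and 308013 and 346756 CPM under R2i, with miR-295-3p the most abundant. Each of the 6 libraries thus carried the ESC miRNAs at levels far above those of the cluster and of the other marker lists.

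The 3 muscle markers summed to 79.4 and 46.6 CPM in serum, 0.486 and 0.305 CPM under 2i, and 7.72 and 4.005 CPM under R2i; miR-133a-3p was the most abundant by its mean over the libraries, and miR-1a-3p and miR-206-3p were at 0 in some libraries. The 5 mesenchymal markers, led by miR-143-3p with miR-214-3p at 0 in some libraries, summed to 1431 and 2047 CPM in serum, 3331 and 3653 CPM under 2i, and 2415 and 2423 CPM under R2i. The muscle markers were therefore highest in serum, where the cluster was lowest, and the mesenchymal markers highest in 2i.

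The 3 blood markers summed to 248 and 258 CPM in serum, 353 and 131 CPM under 2i, and 111 and 44.9 CPM under R2i, led by miR-142a-3p, with miR-223-3p and miR-451a at 0 in some libraries. The 4 neural markers, none at 0, summed to between 785 and 1090.2 CPM, with miR-124-3p the most abundant. The 4 endoderm markers were led by miR-192-5p, with miR-122-5p at 0 in some libraries. They summed to 1409 and 2018 CPM in serum, 1468 and 2038 CPM under 2i, and 1676 and 2471 CPM under R2i. Within each line the endoderm markers were thus lowest in serum and highest in R2i, as the cluster was. Blood markers were lowest in R2i, where the cluster was highest, and the part of any of these markers in the results for the cluster was not tested.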

How the data were processed

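Small RNA was sequenced from RB18 and RB20 ESCs in serum, 2i and R2i, 1 library each. The submitters' processing notes name FastQC 0.11.5, cutadapt 1.3, Bowtie 1.1.2, featureCounts 1.5 and mm10. The deposited counts are whole reads per mature miRNA, not normalized, and the deposited log2 values, for 1233 miRNAs, were made by the authors as log2(count / size factor + 1).

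Counts were filtered with filterByExpr (minimum count 10, minimum total 15), which kept 571 of 1907 miRNAs, TMM-scaled and tested with edgeR 4.0.16 in R 4.3.3, with 1 coefficient per medium. The biological coefficient of variation was 24.6%. The same cell lines recur in each medium, which pairs the libraries; differences between RB20 and RB18 correlated across the 571 miRNAs at 0.21 (serum with 2i), -0.13 (serum with R2i) and 0.25 (2i with R2i). Alternatives were DESeq2 1.42.0, limma 3.58.1 on the log2 values, the line as a block, other scalings, filters and limits, and leaving out each library. Patterns were compared on log2(CPM + 1). Named outside the cluster are miRNAs with a member's seed, the 5 most similar in pattern and cell type markers (ESC, mesenchymal, neural, muscle, endoderm, blood). Members and lists were chosen with earlier results of these data known. Values were summarised in Python 3.11.15 with numpy 2.4.6 and pandas 2.3.3, intervals came from scipy 1.17.1, and plots from matplotlib 3.10.9.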

Additional observations from a re-analysis of the deposited data

How the results depend on the processing

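The number of members called depended on the processing. With DESeq2 it was 4 in 2i against serum, 8 in R2i against serum, 7 in the ground state against serum and 2 in R2i against 2i, where of all miRNAs 111, 96 and 110 of 571 and 8 of 427 were called higher; without the filter on low counts it was 4, 8, 8 and 3 (129, 112, 124 and 11 of 1233). An adjusted p limit of 0.05 gave 4 in 2i and 8 in R2i (125 and 104 of 571), limma on the deposited log2 values 1 in 2i (96 of 571), and a fit to serum and R2i alone 8 (98 of 536). The cell line as a replicate block left 0 called for 2i, 4 for R2i and 2 for the ground state (89, 76 and 91 of 571). In R2i against 2i the block changed no call of a member, and all miRNAs called lower went from 2 to 0 of 571. Leaving out 1 library at a time gave 0 to 3 for 2i, 0 to 8 for R2i and 0 to 5 for the ground state, with 77 to 96, 69 to 87 and 77 to 94 of all tested miRNAs (598 to 609) called higher; where this leaves 1 library of a medium, it is assumed to vary like the other media. Apart from the construction of these fits, the cause was not tested. The interaction with cell line called 0 members in every alternative run.

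In 2i against serum, the log2 fold change of miR-302c-5p ranged from -0.13 to 0.80 and that of miR-302a-5p from -0.000251 to 0.73 when 1 library was left out, so their sign is not settled. Of 560 values of single members under the alternatives, 480 kept direction and side of the limit, 32 lost a call, 46 gained a call and 2 changed sign. The summed level in R2i over 2i, 2.42, ranged from 1.55 to 3.30 when 1 library was left out. Library totals in place of TMM moved the median of all tested miRNAs by 0.11 in R2i against serum, where the members' median was 2.36 and 7 members were called, as with a filter of at least 10 counts in every library. miR-302b-5p and miR-367-5p had at most 14 counts in any library, and no fold is given for them.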
